A study of Homo sapiens with 6 samples.

Results

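The cytosolic ribosomal proteins were taken as every gene whose whole symbol is RPL or RPS with a number and at most a closing A, X, L or further digits, together with *RPLP0*, *RPLP1*, *RPLP2* and *RPSA*. Kinase genes such as *RPS6KB1* and read-through genes with a compound name are not members. This rule used gene names and no measured value, and it found 85 of the 20348 genes in the table, 53 of the large and 32 of the small ribosomal subunit. RNA sequencing was performed on MV4-11, an established human acute myeloid leukemia (AML) cell line. There were 3 Control samples labelled as untreated and 3 samples exposed to 1 μM WNK463, a compound that blocks kinases of the WNK family, and all 6 were collected at 48 h. All 6 samples came from a single cell line, the vehicle of the Control samples is not given in the sources used here, and nothing states that the replicates were separate cultures, so the p-values measure only the spread between these samples.

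The ribosome is built from ribosomal RNA and a set of small basic proteins, most of which are present in a single copy per subunit. Messenger RNAs of ribosomal proteins usually begin with a cytosine followed by an uninterrupted stretch of pyrimidines, the terminal oligopyrimidine (TOP) motif, through which mTORC1 and LARP1 adjust their translation and stability together. Leukemic cells depend on a high rate of ribosome production, and loss of a single ribosomal protein gene underlies Diamond-Blackfan anaemia, a failure of red cell production.

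The start of the transcript is shown for 12 members on which the results turn, since this is where the TOP motif lies. Each line gives 30 bases around a start listed by RefSeq on GRCh38.p14, 15 before it and 15 from it onward, read along the strand of the gene. Where several starts were listed, as for 11 members, the start with the longest pyrimidine run was taken. Capitals mark a cytosine followed by pyrimidines only, for at least 5 bases in all, whose first base lies within 10 bases of the start, and a run that goes on past the window is cut there, as in *RPL39*, *RPS15* and *RPL7A*.

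RPS29, chr14:49598696-49598725, minus strand: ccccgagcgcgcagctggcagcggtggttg

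RPL39, chrX:119791616-119791645, minus strand: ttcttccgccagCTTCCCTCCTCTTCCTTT

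RPL34, chr4:108620561-108620590, plus strand: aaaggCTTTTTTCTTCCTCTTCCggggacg

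RPS26, chr12:56041903-56041932, plus strand: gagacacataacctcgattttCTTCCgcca

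RPS15, chr19:1438381-1438410, plus strand: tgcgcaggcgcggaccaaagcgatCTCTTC

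RPL28, chr19:55385917-55385946, plus strand: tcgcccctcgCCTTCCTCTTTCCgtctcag

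RPL7A, chr9:133348203-133348232, plus strand: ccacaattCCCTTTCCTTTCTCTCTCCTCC

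RPLP0, chr12:120201097-120201126, minus strand: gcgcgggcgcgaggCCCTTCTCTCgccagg

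RPL22L1, chr3:170870181-170870210, minus strand: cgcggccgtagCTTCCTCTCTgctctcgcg

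RPL36AL, chr14:49620612-49620641, minus strand: ctgtttCTTCCCTTTCCTgttaggcgagag

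RPS27L, chr15:63157463-63157492, minus strand: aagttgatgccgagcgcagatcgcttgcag

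RPL26L1, chr5:172958865-172958894, plus strand: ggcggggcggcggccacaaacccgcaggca

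Of these 12, *RPS29*, *RPS27L* and *RPL26L1* held no such run at the listed start. Over the 68 members with a RefSeq promoter that was searched, a run was found at any listed start in 59 (86.8%), against 38.4% of the 27305 genes searched. Genes on chromosome 8 were not searched. This is a description of the annotated letters and not a measured start.

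The 6 libraries held between 14915745 and 17411780 counts, and 11973 genes passed the filter on low counts. Mitochondrially encoded genes held 4.27 to 4.61% of the counts in Control and 4.07 to 4.75% in WNK463 samples. All 7 AML markers examined (*CD33*, *MPO*, *FLT3*, *HOXA9*, *MEIS1*, *SPI1* and *LYZ*) passed the filter, 4 lower and 2 higher after WNK463, while none of 7 markers of other cell types did, with no count above 12 in any library. Over all members together, replicates of the same group differed beyond counting noise (4.44 to 31.5 for the chi-square statistic over its degrees of freedom).

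Ribosomal protein genes were highly expressed in these cells. Of the 85 members 83 passed the filter, 51 large and 32 small subunit genes. Their mean level over the 6 samples had a median of 1607 TPM (transcript abundance corrected for length and library size), and 63 of them exceeded 1000 TPM. *RPS2*, a protein of the mRNA entry channel, was highest at 7562 ± 221 TPM in Control and 7321 ± 65.3 TPM in WNK463 samples (SD, n = 3). It was followed by *RPL4*, which lines the exit tunnel, at 5603 ± 109 and 5405 ± 173 TPM, and *RPLP0*, the base of the P stalk, at 4407 ± 314 and 4612 ± 64.3 TPM. On this scale the groups overlapped in each of these 3 genes. Their gene-by-gene test on counts is given below.

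The lowest levels belonged to 2 members that duplicate another ribosomal protein and to *RPL23A*. *RPL39L* had 21.5 ± 2.53 TPM in Control and 8.16 ± 1.49 TPM in WNK463 samples, *RPL23A* 32.6 ± 3.96 and 31.0 ± 2.35, and *RPL26L1* 70.2 ± 8.69 and 68.8 ± 2.04. *RPL23A* is an essential exit tunnel protein, and processed pseudogenes could have taken reads from it, as from other members. The 2 members under the filter were *RPL10L*, a retrogene of *RPL10* known from the testis, with 0 counts in every library, and *RPL3L*, the striated muscle copy of *RPL3*, with a single count in WNK463 replicate 2. A floor of 3 counts per library corresponds to 0.172 to 0.201 CPM (counts per 1000000 counts), so levels below it were not detectable at this depth.

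The summed share of the library did not separate the groups. Ribosomal protein counts made up 6.59, 6.19 and 6.39% of all counts in Control replicates 1 to 3 and 5.83, 6.24 and 6.25% in WNK463 replicates 1 to 3. The WNK463 libraries covered a range that overlapped Control, with replicate 1 the lowest of the 6. The mean was 6.39 ± 0.199% in Control and 6.11 ± 0.241% in WNK463 samples, a difference of -0.287 percentage points (two-sided exact permutation p = 0.30, where 3 against 3 samples cannot go below 0.10). The 95% Wilson interval of a single library extended at most 0.0123 points to either side and covers counting error only. Without WNK463 replicate 1 the difference was -0.148 points and without Control replicate 1 it was -0.187 points. Fewer cells of a type and less RNA per cell cannot be told apart in such bulk samples.

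The subunits taken apart did not separate the groups either. The large subunit held 4.20, 3.97 and 4.09% of counts in Control and 3.72, 3.97 and 3.97% in WNK463 samples (exact permutation p = 0.20). The small subunit held 2.39, 2.22 and 2.30% in Control and 2.10, 2.27 and 2.28% in WNK463 samples (exact permutation p = 0.40). In each subunit the WNK463 range reached into that of Control. Without WNK463 replicate 1 the differences of -0.200 and -0.0873 points came to -0.118 and -0.0302 points, and without Control replicate 1 the small subunit difference came to -0.0456 points. The log2 ratio of large to small subunit counts, which does not depend on scaling, was 0.83 ± 0.0104 in Control and 0.81 ± 0.0120 in WNK463 samples, a difference of -0.0165 (exact permutation p = 0.20).

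The share held by mitochondrially encoded genes varied between libraries as given above, and was taken out of the total as a check. The large subunit share then no longer overlapped between the groups, with means of 4.28 and 4.06% (exact permutation p = 0.10, the smallest possible), while that of the small subunit still did. On the TPM scale, where short transcripts weigh more, the members held 16.0 ± 0.390% in Control and 15.8 ± 0.612% in WNK463 samples (exact permutation p = 0.70).

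**Figure D1:**
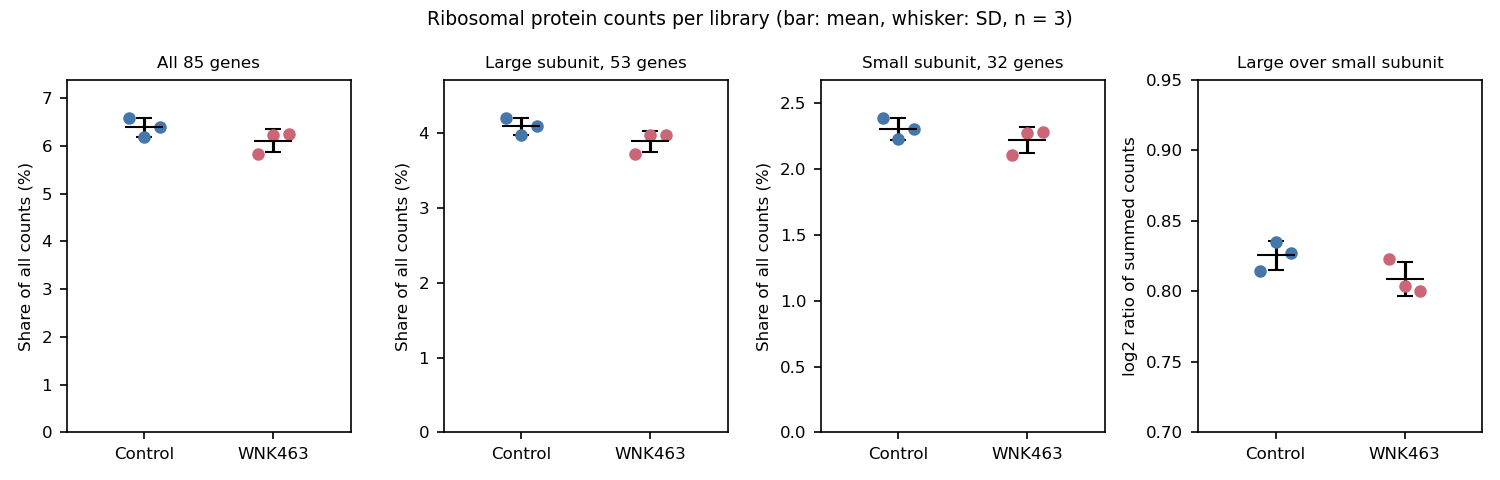
Share of all counts (%) held by the 85 ribosomal protein genes, the 53 large and the 32 small subunit genes, and the log2 ratio of large to small subunit counts (axis from 0.7), for 3 Control and 3 WNK463 samples (points; bar and whisker: mean and SD). The groups overlap in all 4 panels, and WNK463 replicate 1 has the lowest share in the first 3.

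Gene by gene, many members were slightly lower after WNK463, and the number depended on the scaling of the libraries. With TMM scaling (edgeR's trimmed mean of M-values, which sets the typical gene near no change), edgeR's quasi-likelihood test called 55 of the 83 members lower and 5 higher at an adjusted p below 0.05. The treatment moved a large part of the transcriptome, since 35.3% of all tested genes were called lower and 35.5% higher. By subunit, 35 of 51 large and 20 of 32 small subunit genes were lower, with 3 and 2 higher. The median log2 fold change was -0.21 over the large and -0.20 over the small subunit genes, against 0.02 over all genes tested.

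Scaling to total counts raised the median of all genes to 0.17 and that of the members to -0.05, leaving 28 members lower and 16 higher, against 26.1% of all genes lower and 46.1% higher. The distance of the members' median from that of all genes was -0.21 under both scalings. No member was lower with TMM and higher with total counts. The TMM factors lay between 0.944 and 0.952 in Control and between 1.05 and 1.06 in WNK463 samples, so this choice and the treatment cannot be told apart.

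The shifts were small in size. With an added limit of a log2 fold change of at least 1, a single member passed, *RPL39L*, which was lower, whereas 5.55% of all genes were lower and 9.62% higher. At the level of samples, 56 members had all WNK463 CPM (with TMM) below all Control CPM and 2 had them above, while 25 overlapped. Over all tested genes 36.4% lay below and 37.1% above. When each library was left out in turn, 48 members were called lower and 3 higher in every fit, as were 30.7% and 29.6% of all genes. The 5 members called higher were 9 without WNK463 replicate 1, and 3 without Control replicate 2, Control replicate 3, WNK463 replicate 2 or WNK463 replicate 3.

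Abundant genes as such were lower more often than genes overall in this comparison. Of the 2327 genes that were not members and had a mean of at least 100 CPM, 51.3% were called lower and 28.1% higher with TMM scaling, with a median log2 fold change of -0.13. Among the 600 of these with transcripts of at most 1000 bases, the median was -0.17, and 54.3% were lower and 24.8% higher. The corresponding shares of the members were 66.3% and 6.02%, with a median of -0.20, and the difference from the abundant short genes was not tested.

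*RPL39L*, the paralog of *RPL39* known from male germ cells and some tumours, fell most. It had 9.62, 8.09 and 7.56 CPM in Control and 2.96, 3.14 and 2.23 CPM in WNK463 samples, the latter resting on 54 counts or fewer. The groups were well apart, with a log2 fold change of -1.59 ± 0.18 (SE, edgeR adjusted p = 4.4e-07). It lies at chr3:187120948-187180908 on the minus strand of GRCh38.

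*RPS26*, which lines the mRNA exit channel and is mutated in Diamond-Blackfan anaemia, was the most lowered of the abundant members. It measured 457, 434 and 452 CPM in Control and 252, 268 and 264 CPM in WNK463 samples. The groups did not overlap, and the log2 fold change was -0.78 ± 0.05 (edgeR adjusted p = 6.7e-11). *RPS15*, whose tail reaches the decoding site, had 941, 867 and 886 CPM in Control and 619, 529 and 660 CPM after WNK463. This gave a log2 fold change of -0.58 ± 0.06 (edgeR adjusted p = 2.5e-07), again without overlap.

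Among large subunit genes, *RPL28* had 765, 715 and 720 CPM in Control and 490, 488 and 507 CPM after WNK463. Its log2 fold change was -0.57 ± 0.04 (edgeR adjusted p = 3.2e-09). *RPL8*, a neighbour of the peptidyl transferase centre, had 2195, 2002 and 2014 CPM against 1446, 1324 and 1440 CPM, a log2 fold change of -0.56 ± 0.05 (edgeR adjusted p = 1.6e-08). All WNK463 samples lay below all Control samples in both genes. *RPL7A* at -0.54 and *RPS16* at -0.51 had the next largest falls with TMM scaling. The most abundant members, *RPS2* (-0.24, edgeR adjusted p = 9.2e-05) and *RPL4* (-0.25, edgeR adjusted p = 5.8e-05), were also lower, without overlap in CPM. With total counts these changes were -0.09 and -0.10 (edgeR adjusted p = 0.048 and 0.037).

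*RPS29*, a small zinc-binding protein of the subunit head, rose most. It had 46.0, 37.8 and 37.2 CPM in Control and 59.6, 63.8 and 56.1 CPM in WNK463 samples. The groups did not overlap, with a log2 fold change of 0.57 ± 0.08 (edgeR adjusted p = 5.2e-06) and 0.72 with total counts. It lies at chr14:49570984-49599164 on the minus strand. The listed start shown above carries no pyrimidine run, but it lies inside this span and not at its upstream end. Which start these cells used was not measured.

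*RPL34*, a protein of the large subunit surface, was the other member whose groups stood apart in the upward direction. It had 124, 124 and 136 CPM in Control and 139, 164 and 148 CPM in WNK463 samples. The lowest WNK463 library lay just above the highest Control library, with a log2 fold change of 0.23 ± 0.06 (edgeR adjusted p = 0.0026). *RPL39*, which forms part of the exit tunnel wall, had 209, 167 and 183 CPM in Control and 204, 252 and 229 CPM after WNK463. Its groups overlapped through Control replicate 1, with a log2 fold change of 0.29 ± 0.08 (edgeR adjusted p = 0.0022).

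*RPL37* (0.15) and *RPS27* (0.14) completed the 5 called higher, with overlapping groups. For *RPS27* the call was lost when any library other than WNK463 replicate 1 was left out, down to a log2 fold change of 0.07 without WNK463 replicate 2. For *RPL37* it was lost without Control replicate 2 or 3 or WNK463 replicate 2 or 3, down to 0.09 without WNK463 replicate 2. For *RPS29*, *RPL39* and *RPL34* the direction and the call held in every such fit.

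Because the scaling moved the whole family, each library was also scaled to its own summed ribosomal protein counts, so that a fold change describes a member relative to the rest. By this measure 14 members were lower and 20 higher, of which 9 and 12 were large and 5 and 8 small subunit genes, while 49 did not pass. All tested genes shifted upward on this scale (median 0.23), with 21.4% lower and 49.3% higher. When each library was left out in turn, 11 members were lower and 16 higher in every fit, as were 17.2% and 42.4% of all genes. All 14 were also lower and 5 of the 20 also higher with TMM and with total counts.

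The members that gained within the family were led by *RPS29* (log2 fold change 0.79 ± 0.08, edgeR adjusted p = 9.4e-09). It made up 0.0659, 0.0580 and 0.0553% of ribosomal protein counts in Control and 0.107, 0.109 and 0.0942% in WNK463 samples. *RPL39* held 0.299, 0.257 and 0.272% in Control and 0.367, 0.430 and 0.386% in WNK463 samples (0.51 ± 0.07, edgeR adjusted p = 9.4e-07). All WNK463 libraries were above all Control libraries for both. *RPL34* held 0.178, 0.190 and 0.202% against 0.250, 0.280 and 0.249% (0.45 ± 0.07, edgeR adjusted p = 5.7e-06).

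They were followed by *RPS21* (0.38), *RPL37* (0.37), *RPS27* (0.35), *RPS27A* (0.32), which is made as a fusion with ubiquitin, and *RPS24* (0.30). For the 15 members that were higher within the family without passing in the same direction under TMM, the TMM log2 fold changes lay between -0.09 and 0.16. Beyond *RPL39L* (-1.37 ± 0.19, edgeR adjusted p = 5.1e-07), the members that lost share were led by *RPS26* (-0.56 ± 0.06, edgeR adjusted p = 9.3e-09). It went from 0.655, 0.667 and 0.672% of ribosomal protein counts to 0.453, 0.456 and 0.444%. *RPS15* went from 1.35, 1.33 and 1.32% to 1.11, 0.901 and 1.11% (-0.36 ± 0.07, edgeR adjusted p = 5.8e-05). The groups did not overlap for either gene. *RPL28* (-0.35), *RPL8* (-0.34), *RPL7A* (-0.32) and *RPS16* (-0.30) came next.

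**Figure D2:**
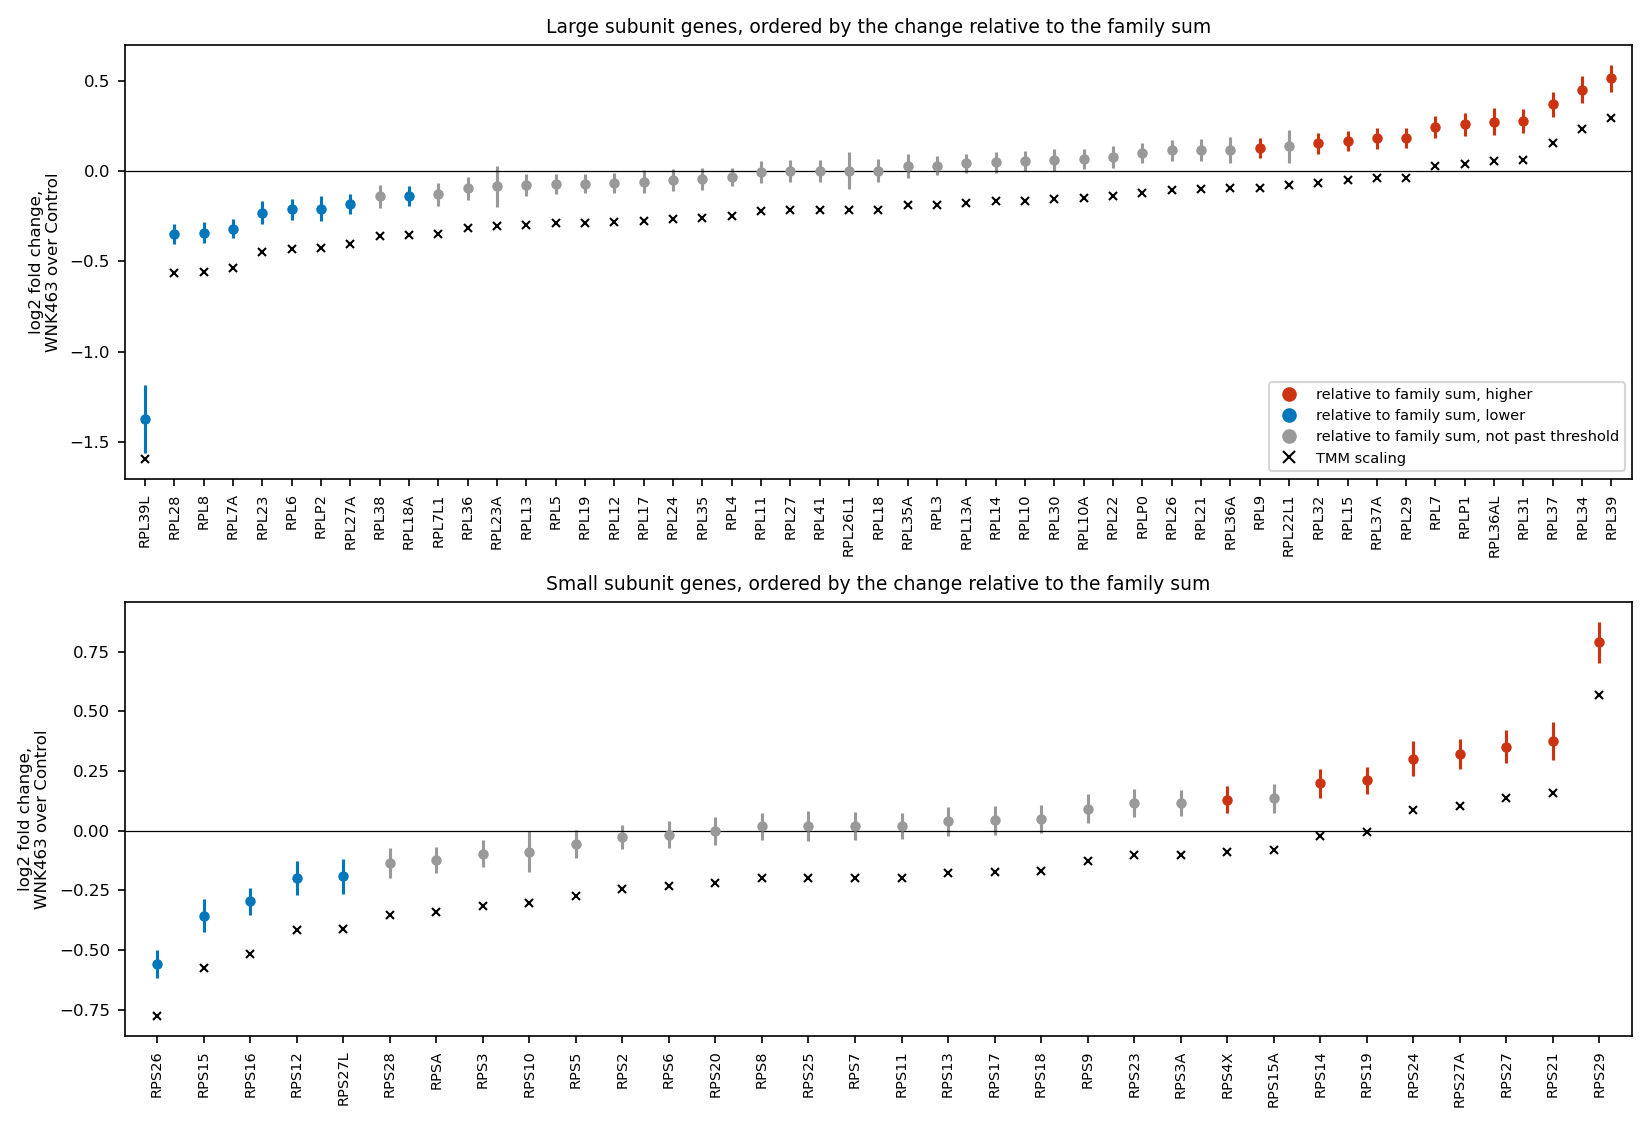
Log2 fold change of WNK463 over Control (y axis) for each of the 51 large and 32 small subunit genes tested (x axis), relative to the summed ribosomal protein counts (circles with SE; red higher, blue lower, grey not past the threshold) and with TMM scaling (crosses). The crosses lie about 0.2 below the circles throughout, so the sign of the genes between them depends on the scaling, whereas *RPL39L* and *RPS26* were lowest and *RPS29* highest on both scales.

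**Figure D3:**
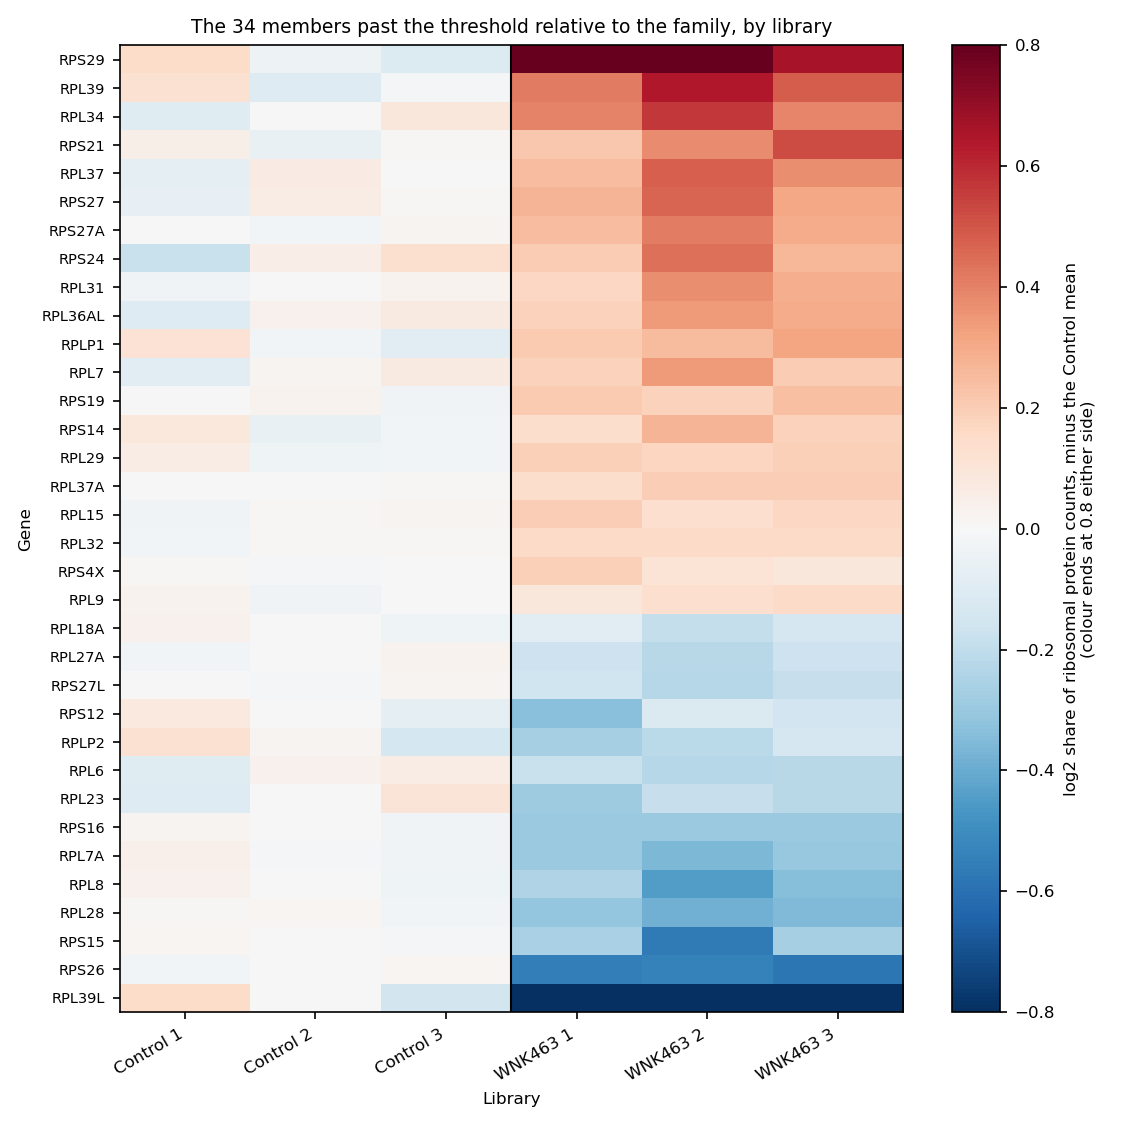
Log2 share of ribosomal protein counts in each of the 6 libraries (columns), minus the Control mean, for the 34 members past the threshold on this scale (rows, ordered by log2 fold change), with red above and blue below the Control mean. The genes were chosen for this difference. *RPS29*, *RPL39* and *RPL34* head the 20 higher members and *RPS15*, *RPS26* and *RPL39L* end the 14 lower ones.

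By position in the ribosome, no group had all of its members called in the same direction relative to the family. In the P stalk, which recruits the elongation factors, *RPL12*, *RPLP0* and *RPLP2* were lower with TMM scaling (3 of 4). *RPLP2* had 336, 292 and 270 CPM in Control and 205, 224 and 240 CPM in WNK463 samples. It was lower under TMM, total counts and the family sum (-0.43, -0.27 and -0.21). Its partner *RPLP1* had 532, 452 and 444 CPM and 454, 492 and 522 CPM, which overlap, with log2 fold changes of 0.04 with TMM (not passed), 0.19 with total counts and 0.26 within the family (edgeR adjusted p = 8.3e-04).

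*RPLP0* had 2798, 2413 and 2445 CPM in Control and 2316, 2332 and 2394 CPM after WNK463. Its TMM log2 fold change of -0.12 turned to 0.03 with total counts and 0.10 within the family, neither of which passed, and the TMM call itself was lost without Control replicate 1 or without any of the WNK463 samples. *RPL12* (-0.28 with TMM) was close to the family as a whole (-0.06, not passed). In the 5S RNP, which delivers the 5S ribosomal RNA and can bind MDM2, both genes were lower with TMM scaling. *RPL5* had 959, 951 and 954 CPM in Control and 745, 809 and 792 CPM in WNK463 samples (-0.29 ± 0.04, edgeR adjusted p = 1.5e-05). *RPL11* had 584, 595 and 638 CPM against 485, 553 and 519 CPM (-0.22 ± 0.05, edgeR adjusted p = 0.0010). Neither gene overlapped between the groups, and relative to the family the changes were -0.07 and -0.01, which did not pass.

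The groups by position are read against all members, of which 66.3% were lower and 6.02% higher with TMM scaling and 16.9% lower and 24.1% higher within the family, and none was tested as a group. Around the exit tunnel, 6 of 9 genes were lower and 1 (*RPL39*) was higher with TMM scaling, and within the family *RPL39* and *RPL31* were higher. Near the peptidyl transferase centre, *RPL3*, *RPL8* and *RPL10* were lower with TMM scaling, but within the family only *RPL8* was. Of the 6 genes of the mRNA entry channel and decoding site, 4 were lower with TMM scaling, and within the family *RPS15* and *RPS12* were lower and *RPS27A* higher. Among 8 genes of the mRNA exit and platform, 5 were lower and 1 (*RPS27*) higher with TMM scaling. Within the family this group held *RPS26* in one direction and *RPS14*, *RPS21* and *RPS27* in the other. Of 9 genes of the subunit head, 6 were lower with TMM scaling and *RPS29* was higher, and within the family *RPS16* was lower and *RPS29* and *RPS19* higher.

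Genes mutated in Diamond-Blackfan anaemia spanned the same range. Of 19 tested, 11 were lower and 2 higher with TMM scaling, with a median log2 fold change of -0.19, against -0.20 over all members. Over all members 66.3% were lower and 6.02% higher on that scale, and over all tested genes 35.3% and 35.5%. Within the family *RPS26* was lower, and 6 were higher (*RPS29*, *RPS27*, *RPS24*, *RPL31*, *RPS19* and *RPL15*). There 16.9% of all members were lower and 24.1% higher, and 21.4% and 49.3% of all tested genes. Whether these 19 differ from the other members was not tested. *RPS19*, the gene most often affected, had 607, 575 and 573 CPM in Control and 558, 579 and 610 CPM in WNK463 samples. The groups overlapped, with a TMM log2 fold change of -0.01 ± 0.05 that did not pass.

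Several ribosomal proteins exist as pairs of paralogs, and the share of the second gene in the counts of a pair is free of library scaling. *RPL39L* made up 4.40, 4.62 and 3.97% of its pair in Control and 1.43, 1.23 and 0.964% in WNK463 samples. *RPS27L*, a p53-responsive copy of *RPS27*, went from 26.6, 24.8 and 25.9% to 20.4, 17.7 and 19.8%. *RPL7L1*, a nucleolar relative of *RPL7*, went from 15.9, 15.6 and 15.3% to 13.5, 11.6 and 12.6%. The groups did not overlap in these 3 pairs.

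*RPL36AL* moved the other way, from 22.4, 22.8 and 22.2% to 24.8, 23.6 and 24.8% of its pair, also without overlap. *RPL22L1* stayed between 7.40 and 8.45% and *RPL26L1* between 2.54 and 3.22%, with overlapping groups. For each of the 4 pairs without overlap the exact permutation p was 0.10, the smallest that 3 against 3 samples allow, and 0.15 after Benjamini-Hochberg adjustment over the 6 pairs. For *RPL22L1* and *RPL26L1* the exact permutation p was 0.50 and 0.40.

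In the gene-level test *RPS27L* had 75.8, 70.0 and 74.2 CPM in Control and 54.2, 54.5 and 57.0 CPM after WNK463 (log2 fold change -0.41 ± 0.06, edgeR adjusted p = 5.9e-06). The TMM log2 fold change of *RPS27* was 0.14, a call that rested on single libraries as given above. *RPL7L1* had 337, 332 and 348 CPM in Control and 268, 264 and 267 CPM after WNK463 (-0.35 ± 0.04, edgeR adjusted p = 1.4e-06). *RPL7* at 0.03 did not pass. Of the other first paralogs, *RPL3* (-0.19), *RPL10* (-0.16) and *RPL22* (-0.14) were lower with TMM scaling, but their sign turned within the family, where all genes shift upward (0.03, 0.05 and 0.08, none passed), as did that of *RPL26L1* (-0.21 to 0.0022). The TMM call of *RPL22* was lost without WNK463 replicate 1, and that of *RPL26L1* without Control replicate 2 or 3 or WNK463 replicate 1 or 2. *RPL26*, *RPL36A*, *RPL22L1* and *RPL36AL* did not pass with TMM scaling (-0.10, -0.10, -0.08 and 0.06).

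**Figure D4:**
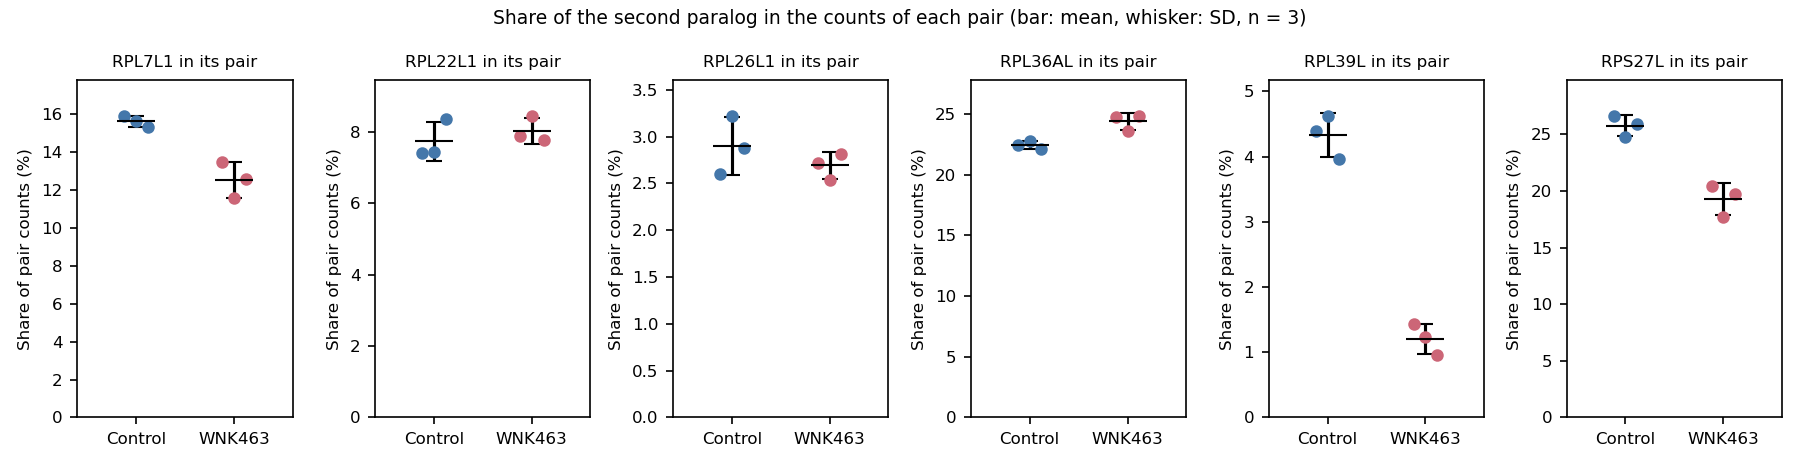
Share (%) of the second paralog in the summed counts of each of 6 pairs, by sample (points; bar and whisker: mean and SD, n = 3), each axis from 0. The WNK463 samples lie below Control for *RPL7L1*, *RPL39L* and *RPS27L* and above it for *RPL36AL*, and overlap with it for *RPL22L1* and *RPL26L1*.

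A few genes share exons or sequence with a member and could exchange reads with it. *RPL17-C18orf32*, a read-through transcript of *RPL17*, had 212, 196 and 246 counts in Control and 537, 511 and 457 in WNK463 samples (log2 fold change 1.14 ± 0.09, edgeR adjusted p = 3.2e-09). Its share of the counts of both genes went from 2.68 ± 0.0785 to 6.88 ± 0.633% (exact permutation p = 0.10), while *RPL17* itself was lower (-0.28, edgeR adjusted p = 8.9e-05). *RPSA2*, a near copy of *RPSA*, held 1.07 ± 0.0013% of their counts in Control and 0.883 ± 0.114% in WNK463 samples (exact permutation p = 0.10). For *RPS10* with *RPS10-NUDT3* and *RPL36A* with *RPL36A-HNRNPH2* the shares overlapped (exact permutation p = 0.40 and 0.70). In *RPS10*, the read-through gene held between 4.63 and 19.2% of the counts among Control samples alone, so the level of *RPS10* itself is uncertain.

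*FAU*, whose small subunit protein is made as a fusion with a ubiquitin-like protein, lies outside the naming rule. It had 210, 183 and 181 CPM in Control and 162, 182 and 191 CPM after WNK463. The groups overlapped, with a log2 fold change of -0.10 ± 0.06 that did not pass.

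Other parts of the translation apparatus were also lower more often than higher with TMM scaling. So were the abundant genes that were not members (51.3% lower and 28.1% higher). Over all tested genes 35.3% were lower and 35.5% higher with TMM scaling, and 26.1% and 46.1% with total counts. Whether these lists differ from other abundant genes was not tested. Of 16 translation factors and other genes known for TOP messenger RNAs, 12 were lower and 1 higher, with a median log2 fold change of -0.19, close to the -0.20 of the members. The largest change was in *EEF1D*, an exchange factor subunit of elongation factor 1, with 419, 373 and 371 CPM in Control and 236, 248 and 249 CPM in WNK463 samples (-0.67 ± 0.05, edgeR adjusted p = 3.0e-09). With total counts 6 of the 16 were lower and 4 higher. Of 26 other initiation, elongation and release factors 19 were lower and 2 higher, with a median of -0.42, and 16 and 7 with total counts. *EIF4A2*, an RNA helicase of the cap-binding complex, went against these, with 209, 210 and 217 CPM in Control and 403, 422 and 398 CPM after WNK463 (0.94 ± 0.05, edgeR adjusted p = 4.9e-12).

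The next 2 lists are read against the same shares of all genes, 35.3% lower and 35.5% higher with TMM scaling, and 26.1% and 46.1% with total counts. Among 13 regulators of TOP messenger RNAs and mTORC1, 8 were lower with TMM scaling and the others did not pass. With total counts 6 were lower and 2 higher, and *AKT1S1* and *RHEB* were the 2. *EIF4EBP1*, a repressor of the cap-binding protein that is itself inactivated by mTORC1, had 101, 99.9 and 96.1 CPM in Control and 57.1, 55.1 and 61.2 CPM in WNK463 samples (-0.78 ± 0.06, edgeR adjusted p = 1.4e-09). *LARP1* itself was lower by this test (-0.38, edgeR adjusted p = 7.0e-07). Of 10 chaperones and importers of ribosomal proteins 7 were lower and 1 higher with TMM scaling, and 5 and 1 with total counts. The largest change was in *GRWD1*, a chaperone of *RPL3* protein, with 118, 100 and 98.6 CPM in Control and 53.0, 51.8 and 52.7 CPM after WNK463 (-1.01 ± 0.07, edgeR adjusted p = 3.5e-10). *NAP1L1*, which was lower, is counted both here and among the genes known for TOP messenger RNAs.

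Mitochondrial ribosomal protein genes were taken by name alone, as symbols of MRPL or MRPS with a number and at most a closing letter. The 78 genes so named were set beside the members. With TMM scaling 51 were lower and 6 higher, with a median of -0.30. The corresponding values were 55, 5 and -0.20 for the 83 cytosolic members. With total counts these were 35, 16 and -0.15, against 28, 16 and -0.05 for the 83 members. Over all tested genes 35.3% were lower and 35.5% higher with TMM scaling, and 26.1% and 46.1% with total counts. The lists share no gene, and the difference between them was not tested.

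Base composition moved with the pattern within the family. Over the 83 members, the log2 fold change relative to the family correlated with the GC content of the transcripts at Pearson's r = -0.28 and Spearman's rho = -0.38, a description over genes that share the same 6 libraries. The 20 higher members had a median GC content of 48.2% and the 14 lower members 52.9%, against 49.6% for all members. A relation to GC content also appeared between replicates of a single group, where its sign depends on which replicate is set over the other. The correlations were -0.50 and -0.54 for Control replicate 3 over Control replicate 1, and -0.54 and -0.50 for WNK463 replicate 2 over WNK463 replicate 1. These pairs differed most in each group. *RPS29* and *RPL39L*, which moved farthest, both had 48.9% GC.

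With an edgeR offset for GC content and length, added after the data were seen, 64 members were lower and 4 higher, while 42.6% of all genes were lower and 30.4% higher. The median was -0.22 beside -0.08 for all genes, and the distance between them was -0.14, against -0.21 with TMM alone. *RPS29* was at 0.54 and *RPS26* at -0.84 in that fit, while *RPL34* (0.13) and *RPL39* (0.17) moved toward 0. *RPS27* (0.09) and *RPL37* (0.06) no longer passed. Within a group, the share of a member in the family had a coefficient of variation with a median of 3.37% in Control and 3.45% in WNK463 samples. The part of GC content in the result was not tested.

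**Figure D5:**
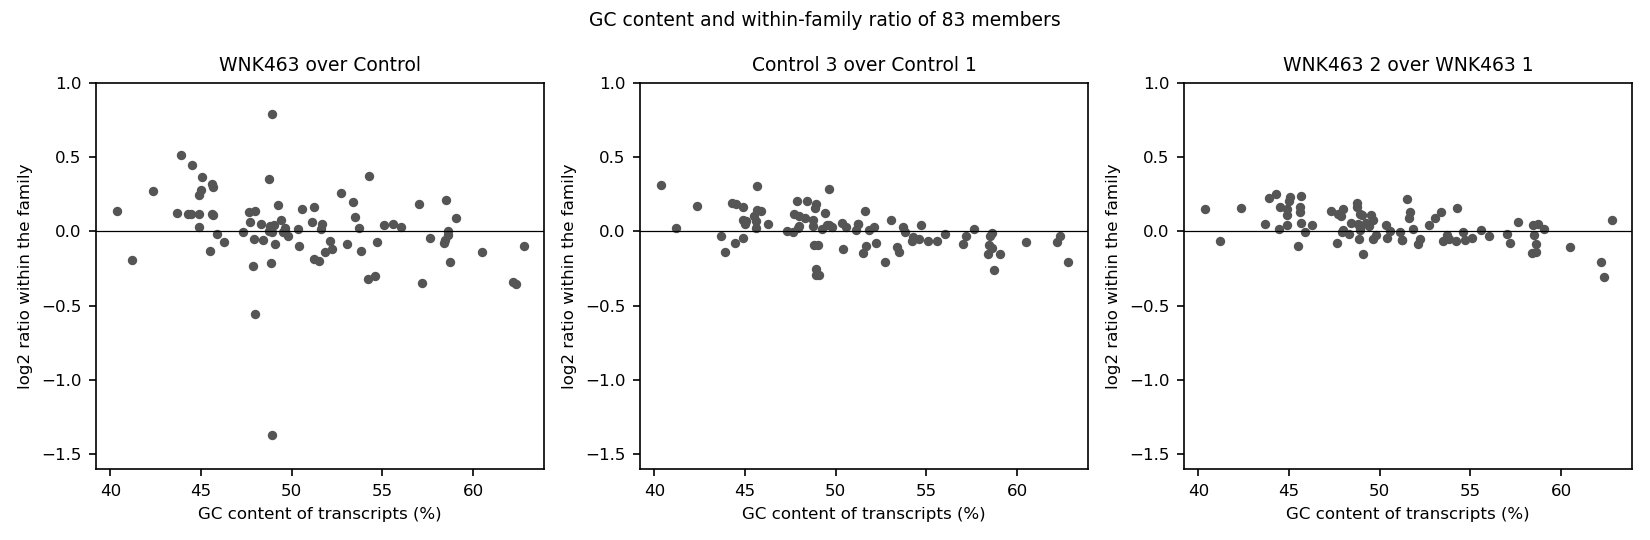
Log2 ratio within the ribosomal protein family (y axis) against GC content of the transcripts in percent (x axis) for 83 members (points), for WNK463 over Control and for a pair of replicates in each group. The log2 ratio varies with GC content in the comparison and in the replicate pairs (r = -0.28, -0.50 and -0.54 from left to right). For the replicate pairs the sign depends on the order in which the replicates were set. The highest and lowest points of the left panel are *RPS29* and *RPL39L*.

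The start sequences were compared between members that gained and lost share, as a description. A pyrimidine run was found in 16 of 18 members that were higher within the family and had a searched promoter, in 8 of 10 that were lower and in 35 of the other 40. *RPL7*, which was higher, and *RPL8*, which was lower, lie on chromosome 8 and were not searched. Promoter letters were sought in the 300 bases around any listed start (250 before and 50 after, on either strand). The letters CCGGAAG, found in sites of ETS family factors, were present in 24 of 68 members (35.3%), against 12.2% of all genes. AAGATGGC, letters found in YY1 sites, were present in 7 (10.3%), against 3.52%. The TATA box letters TATAAA were present in 7 (10.3%), against 14.0%. None of the 7 members with AAGATGGC was among those that were higher or lower within the family.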

How the data were processed

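RNA of 3 Control and 3 WNK463 samples was enriched for mRNA and sequenced. The authors deposited a table of estimated counts, given as whole numbers, and TPM per gene and sample. Group mean TPM, log2 fold changes (a ratio of these means) and p-value columns by the authors were not used. The submitters' processing notes name GRCh38, fastp, Bowtie2, HISAT2, StringTie, RSEM, DESeq2 and edgeR, with no role or version. Strandedness is not given in the sources used here, and reads of pseudogenes or near-identical copies may have been divided among genes.

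Counts were tested with edgeR 4.0.16 in R 4.3.3 (TMM, default filter with a minimum count of 10, quasi-likelihood test, group only, common biological coefficient of variation 5.21%), with Benjamini-Hochberg adjustment over 11973 genes and a threshold of 0.05. CPM used TMM library sizes. Standard errors were the log2 fold change over the square root of F. The procedure was checked on simulated data with few changed genes, equally many in each direction, so this check does not bear on the choice of scaling. Shares were compared by two-sided exact permutation tests. Alternatives were total counts, TMM without the members, DESeq2 1.42.0, other filters, the replicate number as a block, limma 3.58.1 on log2(TPM + 1) and log2(TPM + 0.1), and each sample left out. Gene positions and GC content came from GENCODE 29 on GRCh38, starts from RefSeq. Genes were searched for pyrimidine runs and promoter letters outside chromosome 8, counting each gene once. The members *RPL7*, *RPL8*, *RPL30* and *RPS20* lie on that chromosome and were left out of both searches. A gene with several listed starts was counted by the start with the longest pyrimidine run, and for promoter letters by any of its starts.

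Genes named in full were those under the filter, those with the largest changes whose groups do not overlap, both genes of each paralog pair, P stalk and 5S RNP genes, the highest and lowest by TPM, the most changed gene of each other list, and the 3 that moved most in each direction within the family. Other members were named after their values were seen. A gene that this rule names is not reported here. The members and lists were chosen with earlier results of these data known.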

Additional observations from a re-analysis of the deposited data

How the results depend on the processing

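The members called lower and higher were 55 and 5 by edgeR with TMM, 28 and 16 with total counts, 20 and 17 with limma on log2(TPM + 1) or log2(TPM + 0.1), and 16 and 12 with limma without a filter. The first change concerns scaling alone, whereas limma on TPM changes test, unit and scaling together. Over these same settings the median log2 fold change of all members was -0.20, -0.045, -0.0041, -0.0041 and -0.0039, of large subunit genes -0.21, -0.062, -0.022, -0.022 and -0.0082, and of small subunit genes -0.20, -0.045, -0.0039, -0.0039 and -0.0039. The median of all genes was 0.02 with TMM and 0.16 with limma on log2(TPM + 1). Leaving out each library gave 3 to 9 members called higher and a large subunit median between -0.23 and -0.16. With TPM in place of counts, the differences in paralog share were -1.54 points for *RPL7L1*, 0.824 for *RPL22L1*, -1.71 for *RPL39L* and -3.74 for *RPS27L*, since TPM divides by length. Among named genes the sign turned for *RPL10* (0.040 with each limma fit, 0.053 with the family sum), *RPL22* (0.015 with total counts, 0.057 with each limma fit, 0.079 with the family sum), *RPL26L1* (0.0022 with the family sum), *RPL3* (0.0054 with each limma fit, 0.029 with the family sum) and *RPLP0* (0.031 with total counts, 0.068 with each limma fit, 0.099 with the family sum), where a sign change that passed in neither fit is not counted. Total counts and the family sum shift all genes upward alike, so the turns under them restate the scaling. Over 35 named genes and all settings, 492 of 595 values kept direction and side of the threshold, 61 lost it, 23 gained it and 19 turned. Scaling of named genes to the family sum and the GC and length offset were chosen after seeing the data. With the replicate block, 55 members were lower and 5 higher, and within the family 12 and 17. Same-numbered samples did not deviate together (correlations of 0.0188, -0.00706 and -0.048), so the numbers were not taken to pair samples. Counts of 54 or fewer limit *RPL39L* in WNK463 samples, and over the members as a whole replicates differed beyond counting noise.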
